A study of Mus musculus with 3 samples.

Results

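The 6 genes *Rgs5*, *Rgs4*, *Kcnj8*, *Abcc9*, *Cspg4* and *Higd1b*, all in use as markers of pericytes, were followed through single cells of the mouse iridocorneal angle and limbus, the ring of tissue that drains aqueous humor from the eye. They were taken by name and are 6 of the 31053 genes counted. The libraries were made to map the cell types of this region, with the altered tissue of *Angpt1*-deficient eyes as an aid in naming clusters. They comprised 2 control libraries (*Angpt1* flox/flox, control replicates 1 and 2) and 1 library of *Angpt1*ΔNC mice (*Angpt1* flox/flox;Wnt1Cre+), in which the *Wnt1*-Cre transgene removes *Angpt1* from the neural crest lineage. All mice were 6 weeks old, came from floxed stock crossed for 2 generations to albino ICR mice, and were pooled by 2 to 3 animals of both sexes per library. The library is the replicate, so *Angpt1*ΔNC has n = 1. That lineage also gives rise to pericytes and smooth muscle of the front of the eye, so Cre can act in the mural cells themselves and not in the trabecular meshwork alone.

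Pericytes are the mural cells that sit on capillaries and small venules, and they share a lineage and many genes with vascular smooth muscle. *Rgs5* and *Rgs4* encode small regulators of G protein signaling that speed the shut-off of Gq- and Gi-coupled receptors, through which vasoconstrictors act. *Kcnj8* encodes Kir6.1, the pore of the vascular ATP-sensitive potassium channel, and *Abcc9* encodes its sulfonylurea receptor subunit SUR2. An open channel hyperpolarizes the mural cell and relaxes the vessel. *Cspg4* encodes the NG2 proteoglycan of the mural cell surface, which is also found on glial precursors and other cells. *Higd1b* encodes a small mitochondrial protein of the HIG1 domain family that has been used to mark pericytes.

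The RGS genes are neighbors on the genome, and so are the genes of the channel (build GRCm38, GENCODE annotation). *Rgs5* lies on chromosome 1 from 169655501 to 169695813 on the plus strand, and *Rgs4* on chromosome 1 from 169741477 to 169747642 on the minus strand. Their gene bodies are 45663 bases apart, with 0 annotated genes between them, and point toward each other. *Kcnj8* (chromosome 6, 142564837 to 142571614) and *Abcc9* (chromosome 6, 142587862 to 142702315) are both on the minus strand, 16247 bases apart, also with 0 genes between them. *Cspg4* lies on chromosome 9 from 56865033 to 56899870 and *Higd1b* on chromosome 11 from 102835849 to 102838040, both on the plus strand. Of these genes only *Abcc9* overlaps another one, an antisense transcript (*5330439B14Rik*) that had 1 UMI in all kept cells.

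The 250 bases before the start site are printed for the neighboring pairs and *Cspg4*, to set the promoters of genes that lie side by side next to each other (RefSeq, GRCm38.p6, 5 of the 6 genes matched, each read 5′ to 3′ on the strand of its gene). The start sites are those of RefSeq. For *Abcc9* and *Cspg4* they lie inside the GENCODE gene, so these windows reach into its first bases, and in *Abcc9* the E-box lies in that overlap. Capitals mark matches, on either strand, to a TATA box (TATAAA), a GC box (GGGCGG), an RBPJ core (TGGGAA), a forkhead site (TGTTTAC), a TEAD site (GGAATG), an E-box (CAGCTG) or a CArG box.

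Rgs5, chr1:169655251-169655500, plus strand: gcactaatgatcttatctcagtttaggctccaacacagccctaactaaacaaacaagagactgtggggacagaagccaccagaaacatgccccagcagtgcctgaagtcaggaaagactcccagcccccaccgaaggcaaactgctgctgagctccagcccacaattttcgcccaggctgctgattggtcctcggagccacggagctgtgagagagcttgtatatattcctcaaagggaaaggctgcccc

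Rgs4, chr1:169747643-169747892, minus strand: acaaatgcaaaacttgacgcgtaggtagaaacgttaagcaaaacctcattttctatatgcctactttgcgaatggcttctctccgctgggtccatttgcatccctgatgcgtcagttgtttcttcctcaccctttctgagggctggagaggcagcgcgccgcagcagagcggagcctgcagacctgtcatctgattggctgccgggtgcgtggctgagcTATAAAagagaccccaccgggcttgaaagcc

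Kcnj8, chr6:142571615-142571864, minus strand: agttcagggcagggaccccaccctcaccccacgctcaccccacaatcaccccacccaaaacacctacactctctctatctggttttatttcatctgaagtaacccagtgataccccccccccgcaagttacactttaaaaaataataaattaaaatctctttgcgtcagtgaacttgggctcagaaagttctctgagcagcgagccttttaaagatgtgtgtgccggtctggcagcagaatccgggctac

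Abcc9, chr6:142702275-142702524, minus strand: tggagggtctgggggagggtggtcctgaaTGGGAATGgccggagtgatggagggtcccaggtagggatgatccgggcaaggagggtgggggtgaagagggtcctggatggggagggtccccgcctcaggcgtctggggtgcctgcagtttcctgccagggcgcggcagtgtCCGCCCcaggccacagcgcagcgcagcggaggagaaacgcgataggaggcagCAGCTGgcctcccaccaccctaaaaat

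Cspg4, chr9:56864854-56865103, plus strand: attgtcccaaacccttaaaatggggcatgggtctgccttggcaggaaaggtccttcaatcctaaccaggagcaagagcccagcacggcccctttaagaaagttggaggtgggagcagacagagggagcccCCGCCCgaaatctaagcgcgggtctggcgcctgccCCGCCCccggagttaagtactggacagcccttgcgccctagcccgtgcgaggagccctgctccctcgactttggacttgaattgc

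*Rgs4* held a TATA box from 31 to 26 bases before the start site, a match found in 12.37% of the 32851 promoter windows of the same length. *Abcc9* held a GC box, an E-box that reads the same on both strands, and an RBPJ core that shares 4 of its letters with a TEAD site, from 221 to 214 bases before the start. *Cspg4* held 2 GC boxes. These motifs occur in 32.74% (GC box), 13% (E-box), 21.59% (RBPJ core) and 12.64% (TEAD) of all windows. The *Rgs5* and *Kcnj8* windows held none of the 7 motifs, of which the CArG box is found in 1.467% and the forkhead site in 3.166% of windows. The GC content was 53.6% for both *Rgs5* and *Rgs4*, 49.2% for *Kcnj8* and 66.8% for *Abcc9*, against a median of 52.4%. The channel pair thus spans a wider range of base composition than the RGS pair. A match is a description of the letters and does not show that a factor binds there.

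The authors kept 9076, 10160 and 6772 cells of control replicate 1, control replicate 2 and *Angpt1*ΔNC, with a median of 6329.5, 6393.5 and 7444 UMIs per cell, and gave each cell 1 of 35 labels. The targeted gene *Angpt1* had 2911 and 3158 UMIs in the kept cells of the controls and 26 in those of *Angpt1*ΔNC. Cells typed as male (a UMI of a Y-linked gene, no *Xist*) made up 322 of 461, 374 of 512 and 71 of 222 cells of cluster 20, so the mix of sexes differed with the genotype, and results that changed in male-typed cells alone are given with that value. Between 13 and 25 cell barcodes were shared by each pair of libraries, of which 1 per pair had the same label in both. The study named cluster 20 pericytes, cluster 21 vascular smooth muscle and cluster 19 smooth muscle, and TM1 to TM11 are its subdivision of the stroma and trabecular meshwork. In the controls 10 of 24 pericyte markers, among them *Pdgfrb*, had their highest level in cluster 20 and 6 in cluster 21, while 7 of 10 smooth muscle markers were highest in cluster 19. Endothelial markers (8 genes) summed to 4.35 to 7.45 UMIs per 10,000 in cluster 20 across the libraries, against 130 to 134 in EC3, a vascular endothelial label. Most of the sum in cluster 20 was *Emcn* (3.58 to 6.76).

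Levels below are means over the cells of a label of UMIs per 10,000 UMIs of the cell, and a positive cell has at least 1 UMI of the gene. Clusters 4 and 5, the surface epithelium of limbus and cornea, are not expected to use these genes and served to read free RNA. Their cells are deeper than those of cluster 20, with a median of 15135 to 17717 UMIs against 3945.5 to 4372. There *Rgs5* was found in 2.43%, 3.56% and 0.878% of the cells of control replicate 1, control replicate 2 and *Angpt1*ΔNC, at levels of 0.0117, 0.0210 and 0.00686. The shares of the other 5 genes there were at most 2.17%. *Abcc9* was found in 2.96% and 3.96% of control cells of cluster 5 but in 0.483% and 0.394% of those of cluster 4, so for this gene the epithelium is not a plain reading of free RNA.

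**Figure D1:**
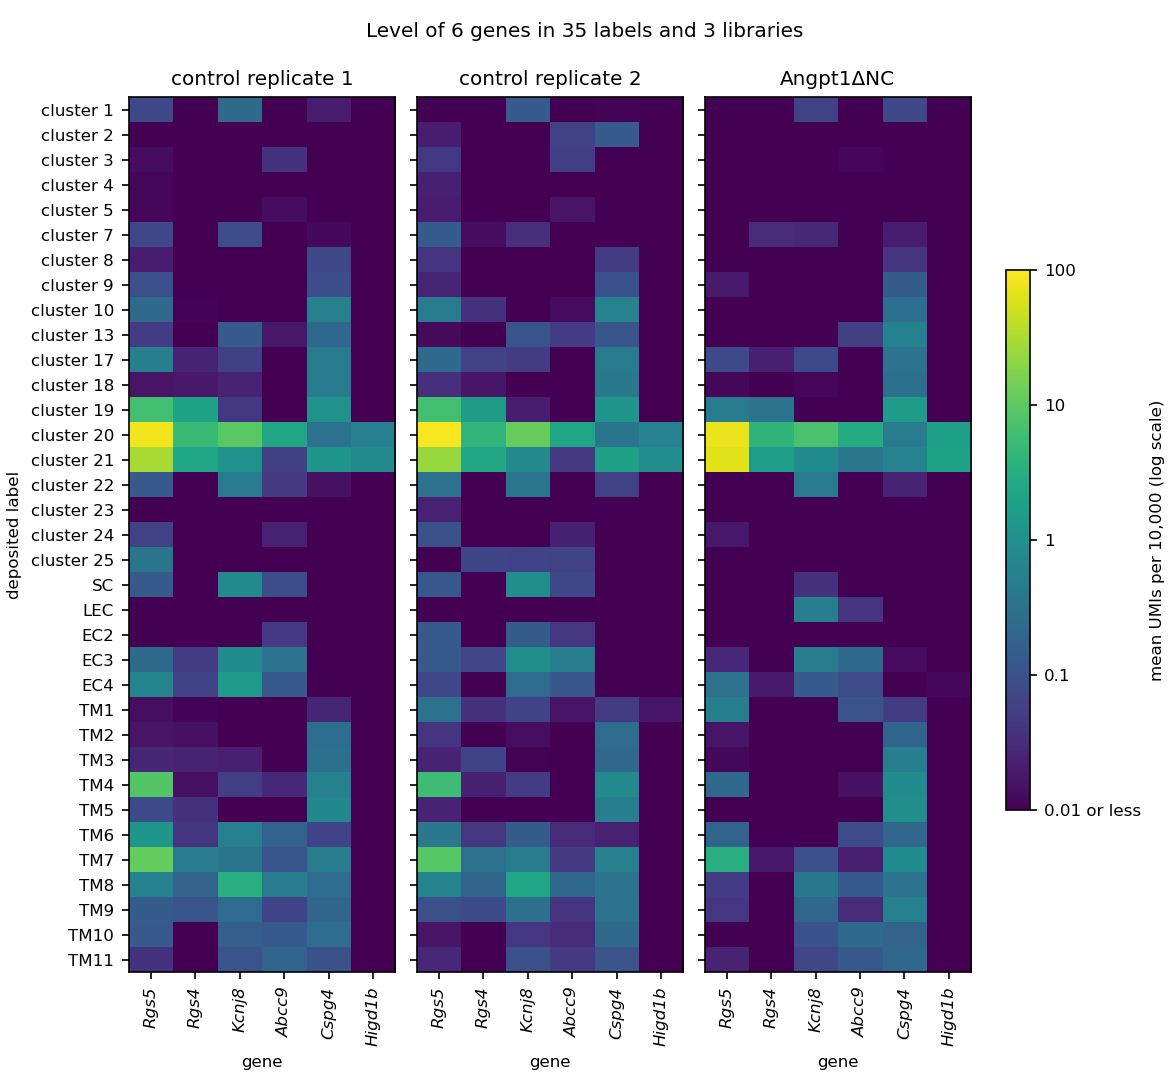
Level of the 6 genes (columns) in each of the 35 deposited labels (rows) for the 3 libraries (panels), as mean UMIs per 10,000 on a logarithmic color scale. Clusters 20 and 21 are bright for *Rgs5* in every panel, *Higd1b* is dark in nearly all other rows, and *Cspg4* is spread over clusters 19 and 21 and most TM labels.

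*Rgs5* was highest in cluster 20, at 82.1, 92.3 and 75.1 UMIs per 10,000 in control replicate 1, control replicate 2 and *Angpt1*ΔNC. Cluster 21 followed with 29.8, 24.1 and 64.1. The ranges of these labels over the 3 libraries did not overlap, and the mean of the controls was 3.24-fold higher in cluster 20. Below them came TM7 (11.5, 9.27 and 3.32), TM4 (8.54, 5.72 and 0.236) and cluster 19 (6.21, 6.13 and 0.466), whose libraries spread so far that TM4 and cluster 19 could not be put in order. TM5, which the study set beside TM4 as trabecular meshwork, had *Rgs5* levels of 0.0790, 0.0253 and 0.00769, with 2 of 54, 2 of 104 and 1 of 126 cells positive.

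*Rgs4*, the neighbor of *Rgs5*, was highest in the mural labels. Its levels in cluster 20 were 5.08, 4.24 and 4.11 UMIs per 10,000, with 57.3%, 54.9% and 54.5% of cells positive. It reached 2.36, 2.47 and 1.73 in cluster 21 and 1.98, 1.57 and 0.348 in cluster 19. In TM7 it was 0.426, 0.321 and 0.0180. TM4, which stood with cluster 19 below TM7 for *Rgs5* in the controls, held hardly any *Rgs4* (3, 9 and 5 UMIs).

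*Kcnj8*, the channel pore, was also highest in cluster 20, at 9.38, 11.6 and 7.23 UMIs per 10,000 with 78.1%, 85.0% and 72.5% of cells positive. Its second label in the controls was TM8, at 3.30 and 2.27 UMIs per 10,000 in the controls and 0.418 in *Angpt1*ΔNC. Cluster 21 (1.13, 0.750 and 0.847), EC3 (0.860, 0.960 and 0.498), EC4 (1.48, 0.253 and 0.145) and SC, the Schlemm's canal label (0.799, 0.934 and 0.0374), came next and overlapped. Over all endothelial labels 27.5%, 21.4% and 10.0% of cells held *Kcnj8*, far above the 0.404%, 0.494% and 0.220% in epithelium.

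*Abcc9*, the receptor subunit of the channel, had levels of 2.33, 2.33 and 2.93 in cluster 20. It was then found in EC3 (0.336, 0.475 and 0.233) and TM8 (0.455, 0.222 and 0.134), so both channel genes had cluster 20, EC3 and TM8 among their 4 highest labels in the controls. In cluster 21 its levels were 0.0569, 0.0467 and 0.380, with 2.13% (95% CI 0.583 to 5.36) and 1.15% (0.140 to 4.09) of cells positive, against 14.5% (7.17 to 25.0) in *Angpt1*ΔNC (exact Clopper-Pearson intervals here and below).

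*Cspg4* did not follow the others. In the controls it was highest in cluster 21 (1.20, 1.86 and 0.597 UMIs per 10,000) and cluster 19 (1.11, 1.24 and 1.62). TM4, TM5, cluster 10 and TM7 followed there. In *Angpt1*ΔNC, cluster 19, TM5 (0.934), TM7 (0.886) and TM4 (0.839) lay above cluster 21. Cluster 20 was the ninth label of *Cspg4*, at 0.312, 0.362 and 0.449, with 12.4%, 13.7% and 15.8% of cells positive. *Higd1b* was the most restricted gene: 99.5%, 97.8% and 99.3% of its UMIs were in clusters 19 to 21, and cluster 19 itself held 0 UMIs in each library. At 0 of 387, 0 of 499 and 0 of 54 cells, a limit of 3 counts over the number of cells allows shares of up to 0.775%, 0.601% and 5.56%. Its levels were 0.805, 0.926 and 2.04 in cluster 21 and 0.558, 0.587 and 1.80 in cluster 20. The next label in the controls, TM1, had 0 UMIs in control replicate 1. In control replicate 2 it had 2 UMIs in 1 of 148 cells, too few for a fold difference.

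**Figure D2:**
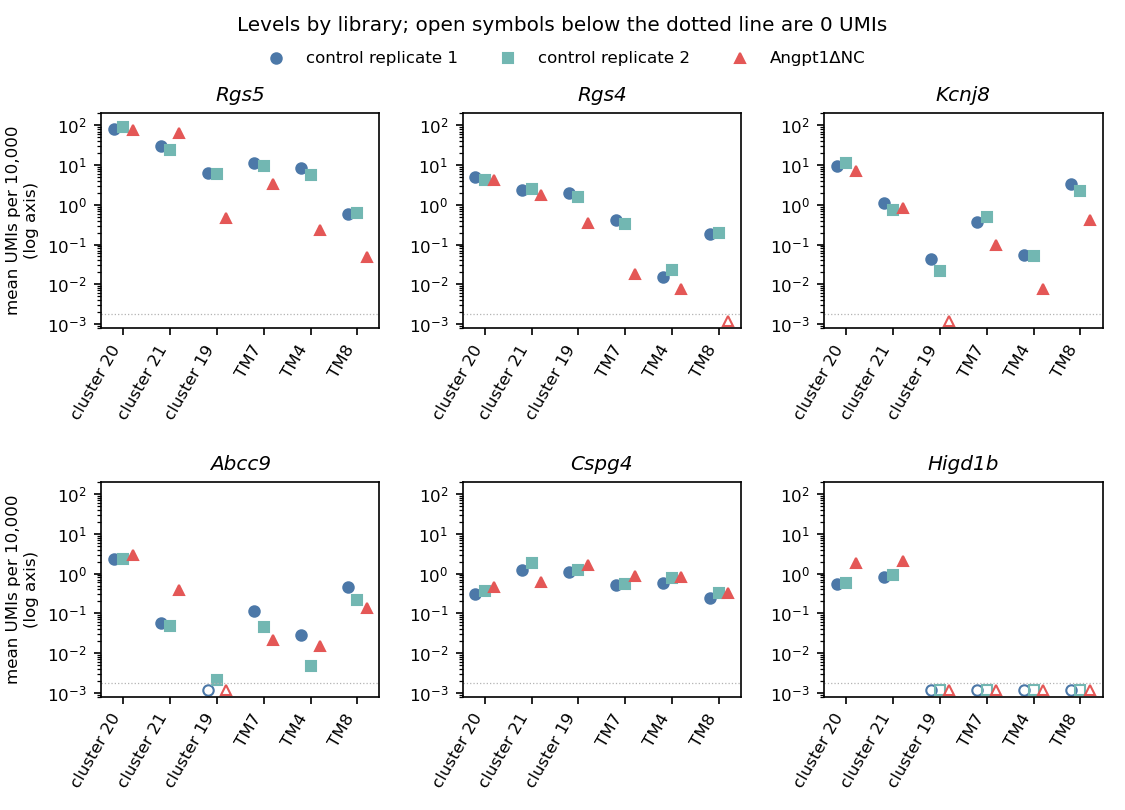
Level of each gene (mean UMIs per 10,000, log axis) in 6 labels, one symbol per library, with open symbols below the dotted line for 0 UMIs. The *Angpt1*ΔNC triangle lies with the controls for *Rgs5* in cluster 20, above them in cluster 21 and below them in cluster 19, TM7, TM4 and TM8.

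The share of each gene's UMIs that came from cluster 20 showed the same split. For *Rgs5* it was 61.1%, 67.4% and 71.9%, for *Kcnj8* 56.8%, 68.9% and 72.4%, and for *Abcc9* 60.4%, 68.3% and 66.3%. *Rgs4* had 49.3% and 47.8% in the controls and 79.7% in *Angpt1*ΔNC. These shares depend on how many cells each label holds. Cluster 19, with 387, 499 and 54 cells, gave 26.5%, 27.9% and 2.78% of the *Rgs4* UMIs. *Cspg4* had 4.52%, 4.41% and 3.20%, and TM1 to TM11 together held 45.4%, 45.7% and 59.9% of its UMIs.

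Within cluster 20 most cells held several of the genes. At least 3 of the 6 genes were detected in 72.5%, 77.5% and 73.0% of cells, and *Rgs5* was missed in under 3% of them (98.7%, 98.2% and 97.7% positive). Both channel subunits were detected in 189 of 461, 244 of 512 and 102 of 222 cells. *Abcc9* was found in 52.5%, 56.1% and 63.4% of cells with *Kcnj8* and in 44.6%, 36.4% and 29.5% of cells without it. Depth differs from cell to cell, so these shares describe detection and not which cells make the channel. In cluster 21 at least 3 of the genes were found in 36.2%, 40.2% and 42.0% of cells.

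Across the 35 labels, each gene of a neighboring pair was the closest match of the other in the controls, among genes with a level of at least 1 in a label. On the log2 scale of the level plus 0.1, *Rgs5* and *Rgs4* had a Pearson correlation of 0.879 in the controls and 0.897 in *Angpt1*ΔNC. *Kcnj8* and *Abcc9* had 0.866 and 0.834. In the controls, *Rgs4* ranked first of 5244 genes for *Rgs5* and *Rgs5* first for *Rgs4*, and the same held for *Kcnj8* and *Abcc9*. In *Angpt1*ΔNC *Rgs4* was closer to *Higd1b* (0.938) than to *Rgs5*. Between the pairs the correlations in the controls were lower, from 0.534 to 0.622. Labels share libraries and depth, so these values have no p. The next genes for *Rgs5* and *Rgs4* were *Aoc3*, an amine oxidase of the vessel wall (0.808 and 0.838), and *Gucy1b1*, a subunit of the nitric oxide receptor guanylate cyclase (0.777 and 0.832). For *Kcnj8* and *Abcc9* the second gene was *Enpep*, which encodes the aminopeptidase that cuts angiotensin II (0.800 and 0.788). *Higd1b* was closest to *Gm13861* (0.932), *Dgkb* (0.887) and *Cartpt* (0.871). *Cspg4* was closest to *Samd4* (0.865), *Nptn* (0.824) and *Foxs1* (0.813), and its correlation with *Abcc9* was 0.0362.

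**Figure D3:**
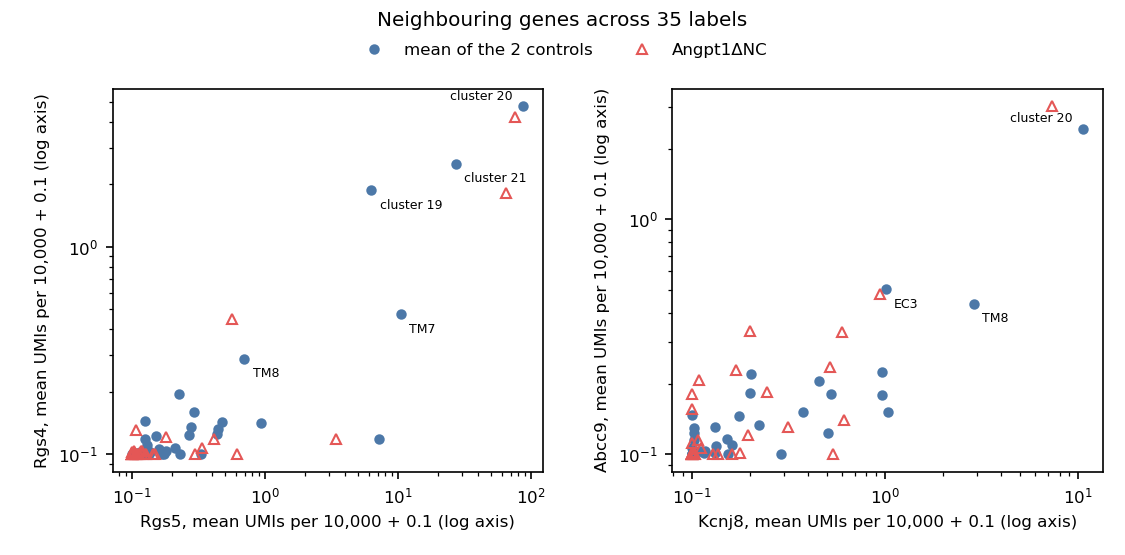
Each point is 1 of 35 labels, with *Rgs5* against *Rgs4* on the left and *Kcnj8* against *Abcc9* on the right (mean UMIs per 10,000 plus 0.1, log axes), circles for the mean of the controls and triangles for *Angpt1*ΔNC. Clusters 20, 21 and 19 lead the left panel and cluster 20 the right one, followed in the controls by TM8 and EC3.

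The relatives named here had their highest levels outside the mural labels, but several were also found in those labels. Of the R4 family of RGS genes, *Rgs16* was highest in SC (8.17 UMIs per 10,000 in the controls) and second in cluster 20 (6.31), *Rgs1* in cluster 24 (20.3), *Rgs2* in cluster 22 (4.91) and *Rgs3* in TM4 (3.01). The pancreatic-type channel subunits *Kcnj11* and *Abcc8* did not exceed 0.00898 and 0.0265 in any label. *Higd1a* and *Higd2a* were highest in EC3 (3.16) and cluster 1 (4.21), and *Cspg5*, a proteoglycan of neural cells, in cluster 1 (5.58). In cluster 20 the control mean of *Rgs16* was above that of *Rgs4* (4.66), and *Rgs2* was at 1.97 and 2.56 in the controls. *Higd1a* (1.73 and 2.07) and *Higd2a* (0.683 and 0.610) were above *Higd1b* (0.558 and 0.587) in the controls of cluster 20.

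For the comparison of genotypes the counts of each label were summed per library and tested with edgeR's quasi-likelihood test with Benjamini-Hochberg adjustment over all genes tested, which assumes that the single *Angpt1*ΔNC library varies like the controls. The labels come from clustering the cells of all libraries on expression. So a change within the cells of a label and a change in which cells carry it cannot be told apart. Changes are *Angpt1*ΔNC relative to the controls.

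In cluster 20 the genes of both pairs were not called and *Higd1b* rose. *Higd1b* had 122, 143 and 201 UMIs in 461, 512 and 222 cells, and was found in 18.7% (95% CI 15.2 to 22.5), 18.6% (15.3 to 22.2) and 43.2% (36.6 to 50.04) of them. Its *Angpt1*ΔNC value lay above both controls, with a log2 change of 1.83 (SE 0.18, adjusted p = 4.9e-06), which is 3.55-fold. It was the 1 member called of 6 tested, where 7.67% of all genes tested were called. *Rgs5* had a log2 change of -0.12 (SE 0.17, adjusted p = 0.741), *Rgs4* of -0.05 (SE 0.16), *Abcc9* of 0.36 (SE 0.16) and *Cspg4* of 0.39 (SE 0.28). *Kcnj8* had -0.58 (SE 0.18, adjusted p = 0.0619), below both controls, and passed the threshold in male-typed cells (-0.81, adjusted p = 0.00300) and without the filter on low counts (adjusted p = 0.00601). *Abcc9* passed it in male-typed cells (0.69, adjusted p = 0.0168). With equal numbers of cells from each library *Higd1b* kept its direction at an adjusted p of 0.209, in a fit that called 0 genes and had 1210 at an unadjusted p under 0.05.

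Other mural genes did move in cluster 20. Of 23 pericyte markers tested, 2 rose, *Des* and *Ebf1*, and 3 fell, with a median log2 change of -0.16 against -0.02 over all genes. *Lamc3*, a laminin chain, fell by 2.45, *Vtn*, the pericyte-derived vitronectin, fell by 1.63 and *P2ry14* fell by 1.01. Of the receptors of contraction *Ednrb* rose (1.78) and *Avpr1a*, the vasopressin receptor, fell by 1.58, with 8 tested. *Rgs2* rose (0.76) and *Rgs16* fell by 1.56. Of 5 stromal fibroblast genes tested 4 fell (*Dcn*, *Lum*, *Col1a1* and *Col1a2*), and the summed level of the 6-gene list went from 13.8 and 12.8 to 5.31 UMIs per 10,000. The endothelial list summed to 6.77 and 7.45 in the controls and 4.35 in *Angpt1*ΔNC, with *Flt1* higher (1.43) and *Emcn* lower (-0.82) of 4 tested. *Emcn* alone made up 6.25, 6.76 and 3.58 of these sums, while *Cdh5* was at 0, 0.00817 and 0. The immune gene *Cd74* fell by 2.1. The part of these cell types in the results was not tested.

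In cluster 21, 3 members rose and 1 fell, where 8.21% of genes were called. *Rgs5* had 29.8 and 24.1 UMIs per 10,000 in 188 and 174 control cells and 64.1 in 69 *Angpt1*ΔNC cells. Its log2 change was 1.42 (SE 0.15, adjusted p = 5.4e-18), and the median cell moved with the mean (the plot of *Rgs5* per cell). *Higd1b* rose 2.87-fold (log2 1.52, SE 0.25, adjusted p = 1.6e-07), with 37.7% of cells positive against 20.7% and 18.4%. *Abcc9* had 7, 2 and 19 UMIs, and its log2 change of 3.32 (SE 0.66, adjusted p = 2.8e-05) rests on these few counts. Without control replicate 2 the log2 change of *Abcc9* was 2.31, and with equal numbers of cells the adjusted p was 0.0566. *Cspg4* fell by 1.07 (SE 0.32, adjusted p = 0.0144). Its call was lost with equal numbers of cells (adjusted p = 0.0704) and with DESeq2 (0.640), as was that of *Higd1b* with DESeq2 (0.0762). *Rgs4* (-0.47, SE 0.27, adjusted p = 0.341) and *Kcnj8* (0.37, SE 0.31) were not called, but in male-typed cells *Rgs4* passed the threshold (-1.26, adjusted p = 0.0166, with 37 *Angpt1*ΔNC cells).

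Of 10 smooth muscle genes tested in cluster 21, 0 rose and 5 fell, and they were *Acta2*, *Tagln*, *Myh11*, *Myl9* and *Cnn1*, which encode contractile and actin-binding proteins. The median log2 change of the list was -0.74 against -0.04 over all genes, and its summed level was 290 and 306 UMIs per 10,000 in the controls and 168 in *Angpt1*ΔNC. Of 17 pericyte markers tested, *Ndufa4l2* (0.90) and *Art3* (1.65) rose and *Rasl12* fell by 1.45. *Ednrb* (1.74), *Rgs2* (0.96) and *Tnc* (1.44), a matrix gene on the trabecular meshwork list, also rose in cluster 21, as they did in cluster 20 (*Tnc* 1.43).

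In cluster 19 the pair of RGS genes fell, and they were 2 of 4 members tested, where 0.966% of genes were called. *Rgs5* went from 6.21 and 6.13 to 0.466 UMIs per 10,000, with 55.3%, 55.5% and 20.4% of cells positive, which is 11 of 54 cells in *Angpt1*ΔNC (95% CI 10.6 to 33.5), and fell 9.96-fold (log2 change -3.32, SE 0.22, adjusted p = 3.4e-05). *Rgs4* fell 5.06-fold (log2 change -2.34, SE 0.34, adjusted p = 0.00790), but not past the threshold in male-typed cells alone (adjusted p = 0.102), where cluster 19 of *Angpt1*ΔNC had 2 cells. *Cspg4* had a log2 change of 0.44 (SE 0.21, adjusted p = 0.383). The *Angpt1*ΔNC value rests on 54 cells against 387 and 499. In the same cells the stromal gene *Dcn* rose (2.16) and *Myoc*, the trabecular myocilin gene, rose (5.12), with summed stromal levels of 7.89, 9.56 and 27.8, and the part of such RNA in the result was not tested. Of 17 pericyte markers tested in cluster 19, 0 were called, with a median of -0.40.

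*Rgs5* also fell in the stromal labels. In TM4 it went from 8.54 and 5.72 to 0.236 UMIs per 10,000, and from 51.0% and 42.7% to 5.47% (95% CI 3.22 to 8.61) of cells, in 286, 330 and 311 cells. The change was 22.2-fold (log2 change -4.48, SE 0.29, adjusted p = 9.6e-08), it was 1 of 3 members called in TM4, and 6.52% of genes were called. *Kcnj8* had 16, 15 and 2 UMIs there (log2 change -2.95, SE 0.88, adjusted p = 0.0581), and *Cspg4* had 0.29 (SE 0.20). *Myoc* and *Chil1*, trabecular meshwork genes, also fell in TM4, by 1.37 and 0.93. The fall of this list was not particular to TM4. The median log2 change of its 5 genes was -0.80 in TM4, -1.05 in TM7 and -1.76 in TM8.

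In TM7, 4 of 5 members tested were called, where 5.07% of genes were. *Rgs5* had 11.5 and 9.27 UMIs per 10,000 in 667 and 739 control cells and 3.32 in 174 *Angpt1*ΔNC cells, and fell 3.05-fold (log2 change -1.61, SE 0.17, adjusted p = 0.00247). *Rgs4* had 163, 150 and 3 UMIs, a log2 change of -3.94 (SE 0.48, adjusted p = 0.00364). *Kcnj8* had 131, 230 and 11 UMIs, a log2 change of -2.26 (SE 0.43, adjusted p = 0.0228), which was 0.0537 in male-typed cells. *Cspg4* rose 1.71-fold (log2 0.77, SE 0.18, adjusted p = 0.0447), a call lost with DESeq2 (0.506). Of the members, *Cspg4* alone moved up in TM7.

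TM8 was fitted after the levels were seen, because it was the second label of *Kcnj8* in the controls. The test of *Kcnj8* in TM8 is therefore not independent of that choice. There 3 of 5 members fell, where 3.58% of genes were called. *Kcnj8* had 744 and 557 UMIs in the controls and 27 in *Angpt1*ΔNC, with 39.6% (95% CI 35.6 to 43.7), 31.5% (27.9 to 35.4) and 9.68% (5.52 to 15.5) of cells positive, and fell 7.07-fold (log2 change -2.82, SE 0.32, adjusted p = 0.000478). *Rgs5* had 125, 146 and 4 UMIs (log2 change -3.29, SE 0.45, adjusted p = 0.00176). *Rgs4* had 49, 50 and 0 UMIs, and 0 of 155 cells allows a share of up to 1.94% by the limit of 3 counts over the number of cells. Against a floor of 3 UMIs in the *Angpt1*ΔNC library it was at least 5.32-fold lower (adjusted p = 0.00787). The calls of *Rgs5* and *Rgs4* were lost in male-typed cells (adjusted p = 0.179 and 0.415, with 21 *Angpt1*ΔNC cells), and that of *Rgs4* also with equal numbers of cells (0.0558). *Abcc9* had 109, 56 and 10 UMIs (log2 change -1.28, SE 0.58, adjusted p = 0.299).

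**Figure D4:**
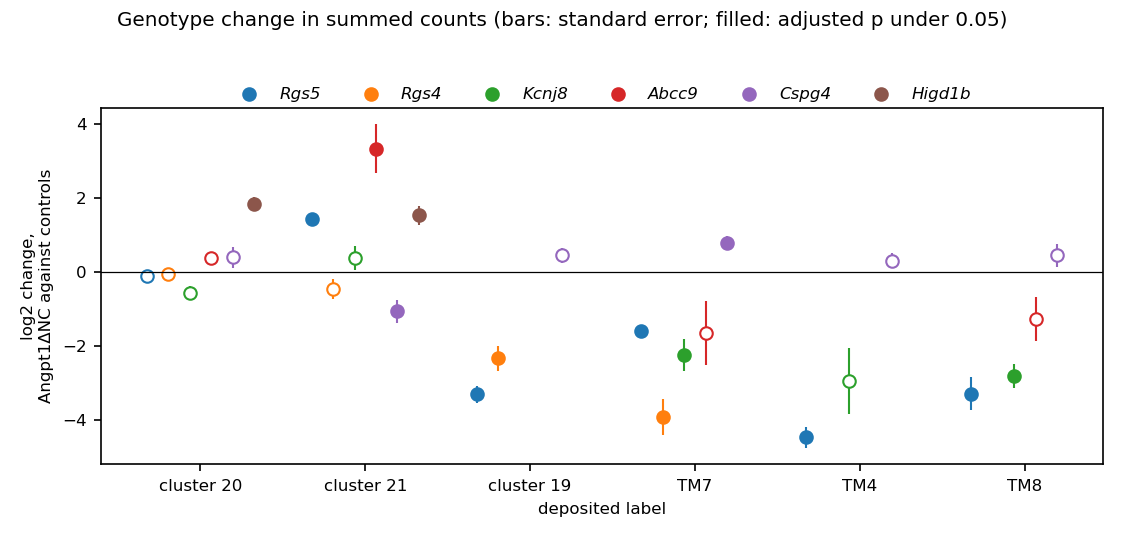
Log2 change of each gene in *Angpt1*ΔNC against the 2 controls, by label, with filled points for an adjusted p under 0.05. Bars are standard errors worked back from the test statistic. Genes that were not tested in a label, and those with 0 UMIs in *Angpt1*ΔNC (*Rgs4* in TM8, *Kcnj8* in cluster 19), are not drawn. The blue points of *Rgs5* lie near 0 in cluster 20, at 1.42 in cluster 21 and between -1.61 and -4.48 in the other labels.

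In TM7, TM4 and TM8 alike, *Gucy1a1*, the other subunit of the nitric oxide receptor, and *Notch3*, the receptor that maintains mural cells, fell as well. *Gucy1a1* fell by 2.02, 2.70 and 1.79 and *Notch3* fell by 1.27, 1.15 and 1.69 on the log2 scale. They were among 2 of 20, 4 of 16 and 2 of 21 pericyte markers that fell, and 1 rose in each label, *Ebf1* in TM7, *Cox4i2* in TM4 and *Des* in TM8. *Dcn* rose in all 3 labels (0.70, 0.91 and 0.80). The smooth muscle gene *Tagln* rose in TM7 (1.68) and TM8 (3.01) and fell by 1.09 in TM4. The endothelial list summed to at most 3.43 UMIs per 10,000 in these labels.

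The change of *Rgs5* was tested against its change in cluster 20 in 1 edgeR fit over the 6 labels with a term for the library. This comparison was chosen after the data were seen. The labels of a library are not independent samples. *Angpt1*ΔNC is 1 library in each label, so its variation within a label was not measured. It differed in all 5 other labels. The change in cluster 21 was higher by 1.49 on the log2 scale (SE 0.20, adjusted p = 8.6e-05), where 1.26% of genes were called. In cluster 19 the difference was -3.21 (SE 0.28, adjusted p = 2.9e-07, 0.952% of genes called), in TM7 -1.48 (SE 0.20, adjusted p = 6.7e-05, 2.12%), in TM4 -4.29 (SE 0.23, adjusted p = 2.8e-11, 2.92%) and in TM8 -3.19 (SE 0.48, adjusted p = 0.000473, 1.34%). *Rgs4* also differed in cluster 19 (-2.30, adjusted p = 0.000388), TM7 (-3.87, adjusted p = 4.8e-05) and TM8 (adjusted p = 0.00378), and *Kcnj8* in TM8 (-2.26, adjusted p = 0.00433). *Abcc9* differed in cluster 21 (2.96, SE 0.74, adjusted p = 0.0484). In male-typed cells the differences in TM8 (adjusted p of *Rgs5*, *Rgs4* and *Kcnj8* 0.356, 0.694 and 0.0609), those of *Rgs4* in cluster 19 and TM7 (0.596 and 0.254) and that of *Abcc9* (0.857) did not pass the threshold. Without the library term *Kcnj8* in TM8 (0.0677) and *Abcc9* in cluster 21 (0.205) did not.

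**Figure D5:**
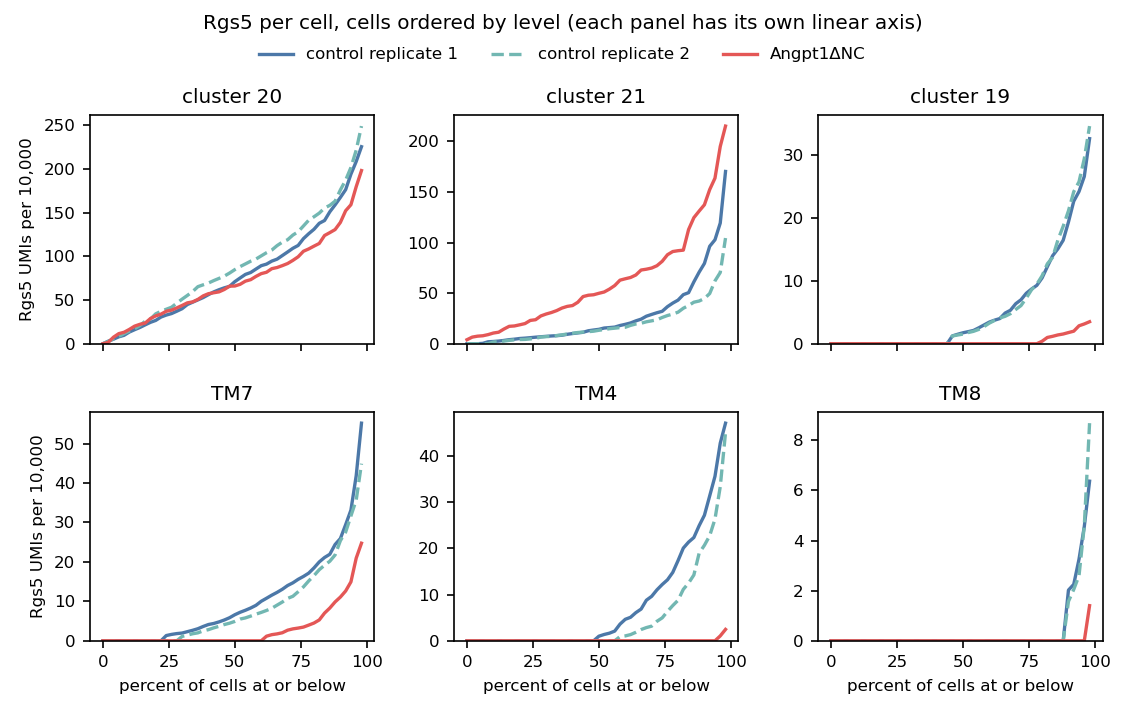
*Rgs5* UMIs per 10,000 in single cells (vertical, linear, scaled per panel) against the percent of cells at or below that level, up to 98%, for 6 labels and the 3 libraries. In cluster 21 the *Angpt1*ΔNC curve runs above both controls over its whole length. In cluster 19, TM7, TM4 and TM8 it leaves 0 later, since fewer cells held the gene.

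Per cell, the lower *Rgs5* of the stromal labels was both a smaller share of positive cells and less in the positive ones. In TM7 77.2%, 70.6% and 39.7% of cells were positive, and the positive cells had a median of 10.6, 8.54 and 4.74 UMIs per 10,000. In TM4 the 146, 141 and 17 positive cells had medians of 12.5, 7.89 and 1.51. In cluster 20 the positive cells had 71.6, 86.7 and 67.1, and in cluster 21 they had 15.8, 15.2 and 49.9. Cells with over 10 *Rgs5* UMIs per 10,000 made up 29.7%, 19.1% and 0.643% of TM4.

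Clusters 19 to 21 were also pooled, so that cells moving between these 3 labels would not change the group. The level of *Higd1b* was then 0.394 and 0.389 in the controls and 1.56 in *Angpt1*ΔNC, that of *Abcc9* 1.05, 1.02 and 1.96, and that of *Rgs5* 44.3, 46.0 and 61.2. *Rgs4* (3.43, 2.86 and 3.04) and *Kcnj8* (4.40, 5.11 and 4.82) lay within the range of the controls in *Angpt1*ΔNC, and *Cspg4* (0.770, 0.952 and 0.662) lay below it. The makeup of this group differed, with 461, 512 and 222 cells of cluster 20 among 1036, 1185 and 345. Cluster 19 gave 387, 499 and 54 of them, and the pooled levels depend on this makeup. Over TM1 to TM11 the level of *Rgs5* was 3.80, 2.79 and 0.387, that of *Kcnj8* 0.841, 0.572 and 0.0914, that of *Rgs4* 0.157, 0.126 and 0.00335 and that of *Cspg4* 0.335, 0.375 and 0.492. Of these 4 genes *Cspg4* alone was higher in *Angpt1*ΔNC in this pool. Its makeup differed too, with 667, 739 and 174 cells of TM7 and 591, 612 and 155 of TM8 among 2803, 3324 and 1946. These pooled levels were not tested. Over the endothelial labels *Kcnj8* was 0.952, 0.627 and 0.231 and *Abcc9* 0.196, 0.228 and 0.102, also without a test.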

How the data were processed

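Single cells were measured by droplet sequencing in 2 control libraries and 1 *Angpt1*ΔNC library. The authors made the counts (UMIs per gene and called cell, build mm10) with Cell Ranger, given as version 2.1.1 in the submitters' notes and 3.0.2 in the matrix header, and clustered kept cells in Seurat 3.1.3 after filtering and removing doublets. Their cluster label for each kept cell was used as deposited. The 3467 value columns in each of 2 cell tables, which fall below 0 and are not counts, were not used.

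The members and lists were chosen with earlier results of these data known. All 6 genes are named, with the listed families, the marker lists and genes among the 5 closest to each over the labels, of which 1 is not reported here. Levels are means of UMIs per 10,000. Intervals and floors (3 counts) cover counting error only. Summed counts were tested with edgeR 4.0.16 (TMM factors, filterByExpr, quasi-likelihood F-test, adjusted p under 0.05) in R 4.3.3. The fit of each label had 1 residual degree of freedom. Each SE is the size of the log2 change divided by the square root of the F statistic. Alternatives were DESeq2 1.42.0, RLE factors, no filter, equal cells, male-typed cells (any Y-linked UMI, no *Xist*), no cells with *Cdh5* or *Pecam1*, and leaving out each control. Libraries held 76981606, 80346829 and 66484181 UMIs in kept cells. Nothing says that the pools were independent beyond their separate libraries, so p-values refer to these libraries alone. They rest on the spread between the control libraries, since *Angpt1*ΔNC has 1 library. The test draws the spread of each gene toward that of all genes tested. A small p thus need not mean that the controls agreed closely for that gene. The spread between *Angpt1*ΔNC pools was not measured. Python 3.11.15 and matplotlib 3.10.9 were used for levels and figures.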

Additional observations from a re-analysis of the deposited data

Results flagged for a closer look

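The effect of the genotype on a gene was flagged where it differed between a label and cluster 20 by a test of the difference itself. *Rgs5* was flagged in cluster 21 (log2 difference 1.49), cluster 19 (-3.21), TM7 (-1.48), TM4 (-4.29) and TM8 (-3.19). *Rgs4* was flagged in cluster 19 (-2.30), TM7 (-3.87) and TM8, where the *Angpt1*ΔNC library held 0 UMIs (adjusted p = 0.00378). *Kcnj8* was flagged in TM8 (-2.26) and *Abcc9* in cluster 21 (2.96, adjusted p = 0.0484). The *Abcc9* difference did not pass the threshold without the library term (adjusted p = 0.205) or in male-typed cells (0.857). The library and the genotype cannot be told apart, since *Angpt1*ΔNC is 1 library.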

How the results depend on the processing

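Leaving out a control was a fold change with no test, and changes that were not called were not checked for direction. Among the 58 such values of the 29 member changes, no called change reversed its direction. In 166 tested repeats of these changes 149 stayed on their side of the threshold, 11 lost a call and 6 gained one. Those gained were *Kcnj8* in cluster 20 (adjusted p = 0.00601 without the filter, 0.00300 in male-typed cells) and in TM4 (0.00890 without the filter), *Abcc9* in cluster 20 (0.0168) and *Rgs4* in cluster 21 (0.0166) in male-typed cells, and *Abcc9* in TM8 (0.0494 without the filter). *Rgs5* in clusters 21 and 19, TM7 and TM4, *Rgs4* in TM7 and *Kcnj8* in TM8 were called in every tested repeat. Male-typed cells of *Angpt1*ΔNC numbered only 2 in cluster 19 and 21 in TM8, so those repeats carry little weight. *Abcc9* in cluster 21 was not tested in male-typed cells or by DESeq2. Genes called over the whole table moved by over 1.5 times as follows. With DESeq2 they were 153 of cluster 20 (698 with edgeR), 82 of cluster 21 (564), 233 of TM7 (545), 167 of TM4 (680) and 123 of TM8 (344). With equal cells they were 0 of cluster 20, 196 of cluster 19 (100), 854 of TM7 and 234 of TM4. In male-typed cells they were 287 of cluster 21 and 202 of cluster 19. Without the filter they were 384 of cluster 19, 1351 of TM7 and 729 of TM8. RLE factors gave 854 in TM7, and leaving out cells with *Cdh5* or *Pecam1* gave 209 in TM8. The cause was not tested. Genes whose change differed from cluster 20 numbered 151, 114, 254, 350 and 161 in cluster 21, cluster 19, TM7, TM4 and TM8. Without the library term they were 51, 51, 82, 120 and 33, and in male-typed cells 78 (cluster 21), 147 (TM7), 190 (TM4) and 85 (TM8). By level, 4 of the 6 genes were highest in cluster 20 under every alternative run. Control levels of at least 0.5 UMIs per 10,000 stayed between 0.864 and 1.26 times their value in all 4 ways of recomputing them. No paired analysis was possible, because the libraries are separate pools and nothing given pairs a control with the 1 *Angpt1*ΔNC library.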

Other observations

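Called cells that the authors did not keep also held these genes. They had 22.7%, 23.6% and 21.8% of the *Rgs5* UMIs of control replicate 1, control replicate 2 and *Angpt1*ΔNC, in 428, 518 and 104 positive cells, and between 16.2% and 29.0% of the UMIs of the other 5 genes. The not kept cells were 2179, 2465 and 1842 of 11255, 12625 and 8614 called cells, with a median of 6956, 8195 and 9964.5 UMIs. They carry no label and enter no comparison.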
